A study of Homo sapiens with 8 samples.

Results

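The 281 genes described here were lower in A498 cells kept with IL1β than in untreated A498 cells, and they were selected on the same measured values that are given below. Counts were expressed as counts per 1000000 counts of a library (CPM). A gene was taken when its mean in untreated libraries was at least 2 CPM, its highest IL1β library lay below its lowest untreated library, and its ratio of means, IL1β over untreated, was at most 0.6. Of 59023 genes in the table, 12392 reached 2 CPM in untreated cells, and 337 of these (2.72%) met the whole rule. Of the 337, 56 were set aside by symbol, which left the 281. Set aside were HOX genes, LINC noncoding genes, antisense transcripts, clone names, genes of collagens, solute carriers, integrins, laminins and ADAMTS proteases, and VAV3, PRICKLE1 and TFAP4. Since the contrast chose the genes, their difference between the groups is a description and carries no test.

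All 8 libraries come from A498, an established cell line with mutated VHL that was derived from a clear cell carcinoma of the kidney. The study exposed these cells to the cytokine to learn which genes an IL1 receptor signal changes in kidney cancer cells. The 4 IL1β libraries (replicates 5, 6, 7 and 8) followed 4 h of exposure at 30 ng/ml, and 4 libraries (replicates 1, 2, 3 and 4) were untreated. The study's methods speak of 4 experimental pairs, but the labels do not say which libraries form a pair or whether replicates are separate cultures, so no test here uses the pairs and p-values measure the spread between these samples, which may be technical.

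IL1β binds the IL1 receptor and activates NF-κB and MAP kinases, which turn on genes of inflammation within hours. Many of the 281 genes encode regulators: zinc finger proteins, other transcription factors, and receptors and nuclear effectors of Hedgehog, BMP, WNT and Notch signaling, pathways with known roles in kidney development. C2H2 zinc finger proteins form the largest family of human transcription factors, and many of them repress transcription through a KRAB domain.

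The promoters of EGR1, GLI2 and CCN2 are shown because these genes stand for the immediate early, Hedgehog and TGF-β target genes among the 281. Each window runs from 250 bases before to 50 bases after the gene start given by RefSeq on GRCh38.p14, and is written 5′ to 3′ on the strand of the gene. Capitals mark matches, on either strand, to a kB-type decamer (GGGNNNNNCC), an AP-1 site (TGANTCA), an E-box (CACGTG), a CRE (TGACGTCA), a CCAAT box, a TATA box of the letters TATAAA, a GC box of the letters GGGCGG, or a CArG box, the last added after the genes were known.
EGR1, chr5:138465229-138465528, plus strand: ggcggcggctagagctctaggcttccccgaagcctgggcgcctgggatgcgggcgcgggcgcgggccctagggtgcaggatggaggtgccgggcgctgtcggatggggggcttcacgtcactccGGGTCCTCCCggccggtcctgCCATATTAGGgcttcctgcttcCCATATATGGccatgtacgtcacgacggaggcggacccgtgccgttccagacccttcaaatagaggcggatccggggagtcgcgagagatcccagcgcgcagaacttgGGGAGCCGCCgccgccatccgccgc
GLI2, chr2:120735618-120735917, plus strand: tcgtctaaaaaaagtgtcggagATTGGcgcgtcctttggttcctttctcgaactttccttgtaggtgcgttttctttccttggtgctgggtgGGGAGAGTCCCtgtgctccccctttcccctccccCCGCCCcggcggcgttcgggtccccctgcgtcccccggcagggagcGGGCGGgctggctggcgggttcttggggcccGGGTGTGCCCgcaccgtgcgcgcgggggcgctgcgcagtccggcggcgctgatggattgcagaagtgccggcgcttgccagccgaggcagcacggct
CCN2, chr6:131951323-131951622, minus strand: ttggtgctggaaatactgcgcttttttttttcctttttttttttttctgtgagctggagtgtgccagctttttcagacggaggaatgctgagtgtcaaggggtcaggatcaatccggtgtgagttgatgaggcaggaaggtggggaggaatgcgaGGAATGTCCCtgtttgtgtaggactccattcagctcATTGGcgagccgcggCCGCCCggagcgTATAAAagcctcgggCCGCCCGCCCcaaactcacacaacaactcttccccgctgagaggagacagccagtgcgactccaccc

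In the EGR1 window the capitals are 2 kB-type decamers and 2 CArG boxes, the sequence bound by serum response factor. The GLI2 window held 3 kB-type decamers, of which a pair overlap, with 1 CCAAT box and 2 GC boxes. The CCN2 window held 1 kB-type decamer, 1 CCAAT box, 1 TATA box and 3 GC boxes, a pair of which overlap. Of 35116 promoter windows of the same length, 58.7% held a kB-type decamer, 7.71% an AP-1 site, 7.26% an E-box, 1.85% a CRE, 34.6% a CCAAT box, 11.5% a TATA box, 45.0% a GC box and 1.29% a CArG box. A match describes letters and not a bound site. Only 220 of the 281 genes (78.3%) had a window in the table, so the shares were not compared between these genes and others.

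Libraries held 15441704 to 24051167 counts with IL1β and 16649698 to 27103728 counts untreated, so 1 count stood for 0.0369 to 0.0648 CPM. The cytokine response was present: CXCL8, a neutrophil chemokine, averaged 4123 ± 471 CPM with IL1β and 248 ± 210 CPM untreated (SD, n = 4 each, edgeR quasi-likelihood adjusted p = 0.0318). NFKBIZ, an NF-κB cofactor, had an adjusted p of 0.00566 in the same test, while GAPDH and ACTB did not pass (adjusted p = 0.724 and 0.627 in edgeR). Of the other genes of the treatment check, ICAM1 passed (edgeR adjusted p = 0.0235). NFKBIA, TNFAIP3 and IL6 had higher means with IL1β but did not pass (edgeR adjusted p = 0.0902, 0.0617 and 0.0847). The summed level of 11 renal and clear cell carcinoma markers was 5645 to 6236 CPM with IL1β and 5339 to 6445 CPM untreated, although CA9 was at 0.389 to 5.04 CPM with IL1β and 0.572 to 3.39 CPM untreated. Summed leukocyte markers were at 2.10 to 3.63 CPM with IL1β and 1.88 to 2.16 CPM untreated, with CD3E and MS4A1 at 0 in all 8 libraries, and summed endothelial markers at 1.59 to 4.86 CPM with IL1β and 2.80 to 7.12 CPM untreated. Fibroblast and pericyte markers, 6 genes, summed to 20.1 to 71.1 CPM with IL1β and to 64.7, 25.9, 24.6 and 166 CPM in untreated replicates 1, 2, 3 and 4. In a principal component analysis of log2 CPM over the 12392 genes, the leading component held 50.4% of the variance and IL1β replicate 5 lay at -80.2 and untreated replicate 1 at -47.2, apart from the other 6 libraries at 12.2 to 31.1. Ratios without both libraries are given for the named genes that then lay above the limit of the rule.

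Relative to its own untreated mean, the median gene of the 281 stood at a log2 value of -1.28 in IL1β replicate 5 and at -0.89, -0.81 and -0.87 in IL1β replicates 6, 7 and 8. In untreated replicates 1, 2, 3 and 4 the same median was -0.03, 0.03, 0.04 and -0.12. Over the 12392 genes it was -0.33, -0.15, -0.13 and -0.16 in the IL1β libraries and -0.08, 0.00, -0.00 and -0.02 in the untreated ones. IL1β replicate 5 had the lowest median over the 281 genes, though not the lowest level of each gene, and its median was also the lowest over all 12392 genes. The 281 genes together took 0.348% to 0.461% of all counts with IL1β and 0.750% to 0.859% untreated, which the rule fixes in direction.

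**Figure D1:**
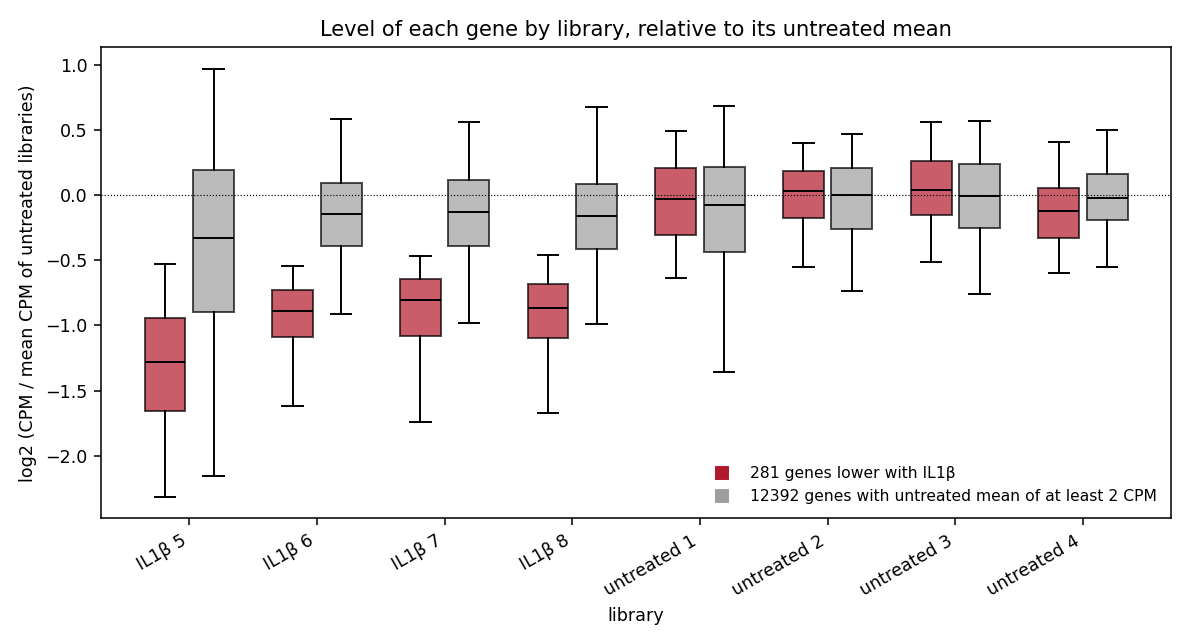
Level of each gene in each library as log2 of its CPM over its mean CPM in untreated libraries, for the 281 genes (red) and the 12392 genes with an untreated mean of at least 2 CPM (grey). Boxes give the quartiles and median and whiskers the 5th and 95th percentiles, and the red medians lie at -1.28 to -0.81 in the IL1β libraries and at -0.12 to 0.04 in the untreated ones.

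The median log2 ratio of means was -0.92 over the 281 genes and -0.17 over the 12392. The CPM scale thus places most genes slightly lower with IL1β. With TMM factors, which centre the bulk of genes between libraries, the median of all 12392 genes was -0.01 and that of the 281 was -0.77. Under TMM the mean of all 281 genes was still lower with IL1β, but the groups stayed apart in 201 and the whole rule was met by 119. Without untreated replicate 1 and IL1β replicate 5, 198 of the 281 met the rule, and the median log2 ratio of all 281 was -0.85. Groups that did not overlap, lower with IL1β, were found in 1016 of the 12392 genes (8.20%), and groups that did not overlap in the other direction in 337 (2.72%). This balance turns with the scale: under TMM, a comparison added after seeing the data, 450 of the same genes were apart and lower (3.63%) and 577 apart and higher (4.66%).

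**Figure D2:**
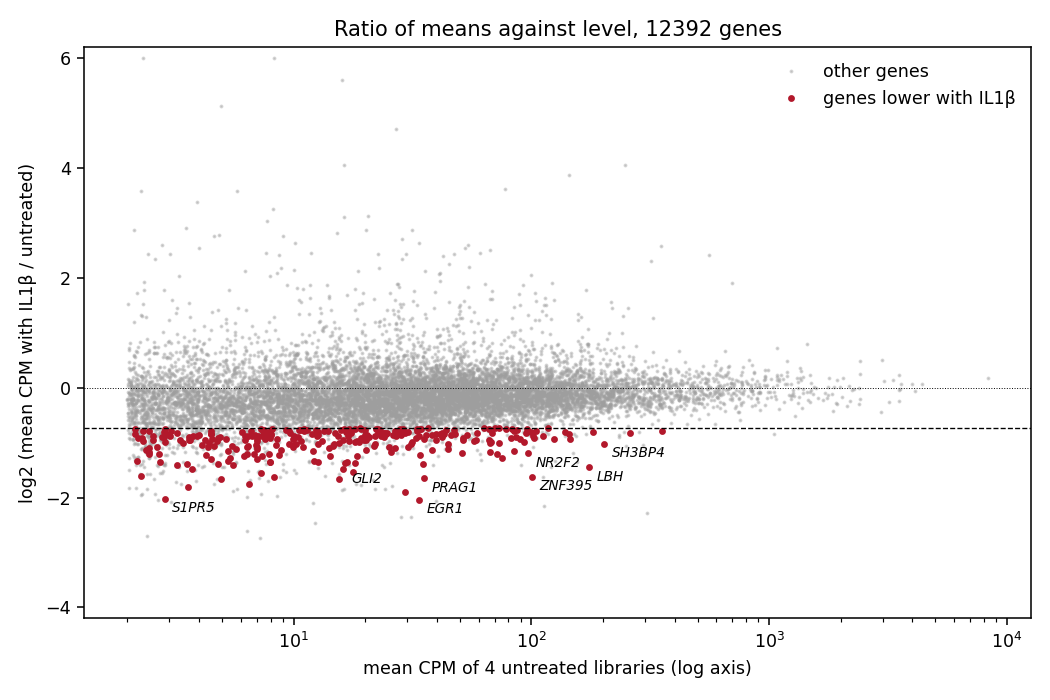
Log2 ratio of mean CPM, IL1β over untreated, against mean CPM of the 4 untreated libraries on a log axis, for 12392 genes, with values beyond -4 and 6 drawn at these limits. The 281 genes (red) lie below the dashed line at a ratio of 0.6, and grey points below it are genes whose groups overlapped or whose symbols were set aside.

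Within the 281 the ratio of means ran between 0.243 and 0.60. It was at most 0.5 in 96 genes and at most 0.4 in 31. In 94 genes the highest IL1β library lay more than 20% below the lowest untreated one, and in 39 genes this gap was under 5%. The genes were of modest abundance, with a median of 14.8 CPM in untreated cells (quartiles 6.40 and 33.7), against 30.1 CPM (10.5 and 73.9) over the 12392. A total of 15 genes averaged at least 100 CPM in untreated cells and 56 averaged under 5 CPM. At the limit of the ratio, RUNX2 (0.5994), SASH1 (0.5996) and ZHX1 (0.60) fell just inside, and DTD2 (0.6003), STRIP2 (0.6005) and ZNF398 (0.6009) met every other part of the rule and fell just outside.

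All 281 genes were tested in edgeR with all other genes. At an adjusted p under 0.05, 9 of 15062 genes were lower with IL1β (0.0598%), 7 of them among the 281, and 140 were higher (0.929%). The count in the 281 was 83 with DESeq2, 9 with limma-voom and 27 in edgeR without untreated replicate 1 and IL1β replicate 5. The rule used this contrast, so these counts describe how strict each tool is and are no evidence about the genes.

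EGR1, an immediate early zinc finger transcription factor induced by growth factors and stress, had the lowest ratio of all (0.243). It was at 3.0, 16.5, 7.27 and 6.02 CPM in IL1β replicates 5, 6, 7 and 8, against 17.4, 19.6, 46.0 and 51.8 CPM in untreated replicates 1, 2, 3 and 4. IL1β replicate 6 came close to untreated replicates 1 and 2, and the groups were barely separated. EGR2, a related early response factor, did not pass the test (1.98 CPM with IL1β and 1.33 CPM untreated, log2 fold change 0.72, standard error 0.28, edgeR adjusted p = 0.379).

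S1PR5, a receptor of the lipid sphingosine-1-phosphate, was at 0.128, 0.499, 1.23 and 0.971 CPM with IL1β and at 1.33, 1.56, 4.16 and 4.42 CPM untreated, and its lowest IL1β library held 2 counts. EEPD1, an endonuclease-like protein of replication fork repair, was at 5.74, 8.86, 11.9 and 4.79 CPM with IL1β, against 13.7, 27.2, 50.1 and 26.3 CPM untreated. In both genes untreated replicate 1 was the lowest untreated library and the spread within the untreated group was wide.

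The clearest gaps among the leading genes were in PRAG1, ZNF114, ZNF395, DEPDC7 and PCDH9. PRAG1, a pseudokinase, was at 11.5, 13.0, 11.0 and 9.78 CPM with IL1β and at 35.8, 26.5, 48.0 and 31.6 CPM untreated. ZNF395, a zinc finger protein known as a target of hypoxia signaling, was at 34.1, 28.7, 29.9 and 37.6 CPM with IL1β, against 132, 69.8, 125 and 74.9 CPM untreated. ZNF114, of the KRAB zinc finger family, was at 2.74, 2.37, 3.02 and 2.59 CPM with IL1β and at 6.57, 10.4, 8.5 and 7.64 CPM untreated. In these genes the 4 IL1β libraries differed from each other by far less than the untreated ones did in CPM.

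DEPDC7, a DEP domain protein, was at 5.42, 5.03, 3.26 and 5.76 CPM with IL1β and at 21.2, 16.4, 11.1 and 13.3 CPM untreated. PCDH9, a protocadherin of cell adhesion, was at 1.02, 1.41, 1.46 and 1.49 CPM with IL1β and at 3.51, 3.30, 3.16 and 5.04 CPM untreated. RASD2, a small GTPase of the RAS family, averaged 1.56 ± 0.260 CPM with IL1β and 4.93 ± 1.31 CPM untreated (SD, n = 4 each). PANK1, a pantothenate kinase that starts coenzyme A synthesis, averaged 2.49 ± 0.620 CPM with IL1β and 7.30 ± 2.66 CPM untreated.

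**Figure D3:**
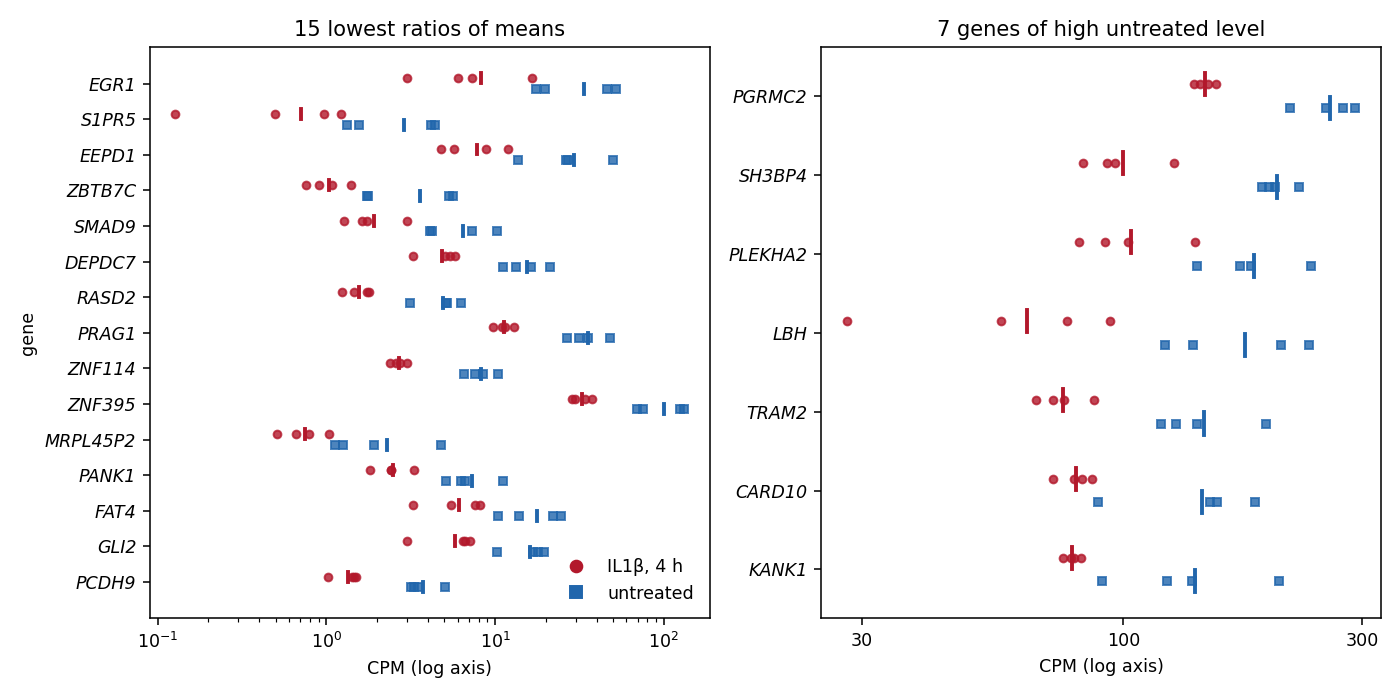
CPM on a log axis of each IL1β library (red circles) and each untreated library (blue squares), with the mean of each group as a bar, for the 15 genes with the lowest ratio and 7 of high untreated level. In every gene drawn the highest red point lies below the lowest blue point, as the rule requires, and PLEKHA2 and CARD10 show the narrowest gaps.

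Of the 15 genes with the lowest ratios, 13 met the rule under TMM and all 15 met it without untreated replicate 1 and IL1β replicate 5. The exceptions under TMM were ZBTB7C, a BTB zinc finger protein at 1.04 ± 0.278 CPM with IL1β and 3.61 ± 2.15 CPM untreated, and the pseudogene MRPL45P2, at 0.749 ± 0.223 CPM and 2.27 ± 1.71 CPM. MRPL45P2 shares sequence with its parent gene, so its reads are uncertain, and its highest value, 4.78 CPM, was that of untreated replicate 4.

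Genes of high CPM in untreated cells were PGRMC2, SH3BP4, PLEKHA2, LBH, TRAM2, CARD10 and KANK1. CPM is not corrected for transcript length, so the order between genes is not one of molecules. LBH, a transcription cofactor of limb bud and heart, had the lowest ratio of these 7 (0.367), at 77.2, 57.0, 28.0 and 94.2 CPM with IL1β and 234, 138, 121 and 206 CPM untreated. SH3BP4, an adaptor of receptor endocytosis, was at 83.1, 96.3, 92.9 and 126 CPM with IL1β and 195, 201, 189 and 224 CPM untreated.

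PGRMC2, a heme-binding membrane protein, averaged 145 ± 6.31 CPM with IL1β and 259 ± 32.8 CPM untreated, and TRAM2, a translocon protein of the endoplasmic reticulum, 75.7 ± 8.58 CPM and 145 ± 33.2 CPM. CARD10, a scaffold that links receptors to NF-κB, averaged 80.4 ± 6.04 CPM with IL1β and 144 ± 39.5 CPM untreated, PLEKHA2, a phosphoinositide-binding adaptor, 104 ± 24.9 CPM and 182 ± 40.6 CPM, and KANK1, a regulator of actin at focal adhesions, 79.0 ± 2.66 CPM and 139 ± 48.1 CPM. Of these, LBH, SH3BP4 and TRAM2 met the rule under TMM. Without untreated replicate 1 and IL1β replicate 5 the ratio of PLEKHA2 was 0.678 and that of KANK1 0.675, above the limit, and the others named here met it.

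The 281 genes were grouped by known role, 63 of them were given no group, and genes named below to fill a group, or as relatives that did not pass a test, were picked after their values were seen. The groups were made from the 281 alone, so their sizes cannot be read against other genes. Where a list or family not limited to the 281 was at hand, its share of members is given. This share stands against 2.27% of all 12392 genes, or 2.72% before symbols were set aside. Zinc finger symbols (ZNF, ZFP, ZSCAN, ZKSCAN and ZBTB) made the largest group, with 40 genes (14.2%) and ratios of 0.287 to 0.597. Of 398 such genes that reached 2 CPM untreated 10.1% met the rule, against 2.48% of the 11994 other genes. Under TMM these shares were 4.27% and 1.08%, and without untreated replicate 1 and IL1β replicate 5 they were 8.54% and 3.54%. The family is less abundant than the rest, with a median of 10.2 CPM against 31.3 CPM untreated, so the shares come from unlike levels.

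Among the 40, ZBTB18, a repressor of neuronal differentiation genes, was at 6.95, 16.5, 18.0 and 16.6 CPM with IL1β and 20.7, 44.9, 35.7 and 35.0 CPM untreated, with replicates 5 and 1 the lowest of their groups. ZNF281, a regulator of pluripotency genes, averaged 54.4 ± 12.7 CPM with IL1β and 103 ± 25.7 CPM untreated. ZNF652, a transcriptional repressor, averaged 5.43 ± 1.36 CPM and 12 ± 2.22 CPM. Most of the others were low: the median of the group was 6.26 CPM in untreated cells. Of the 40, 12 lie on chromosome 19 (30.0%), where 120 of 397 eligible zinc finger genes with a position lie (30.2%), and 22 kept the groups apart under TMM.

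A further 410 zinc finger genes were tested. The rule had already taken the members of the family that were clearly lower, so the counts of the rest, here and in the lists below, describe what the rule left and are no independent test. In edgeR 0 of the 410 were lower and 0 higher at an adjusted p under 0.05. At an unadjusted p under 0.05, 25 were lower and 6 higher, against 685 lower and 938 higher of all 15062 genes tested. The median log2 ratio of the 410 was -0.35, against -0.16 in 14371 other genes tested. A lower mean with IL1β was found in 332 of the 410 (81.0%), against 67.6% of the others. Under TMM the medians were -0.20 and -0.01 and the shares 70.0% and 50.7%. Relative to the untreated mean, their median log2 level was -0.45, -0.34, -0.36 and -0.24 in IL1β replicates 5, 6, 7 and 8, and between -0.09 and 0.04 in the untreated libraries. The median of these genes was below that of the other genes on both scales.

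Hedgehog signaling held 3 genes, and all 3 met the rule under TMM and without untreated replicate 1 and IL1β replicate 5. In this pathway PTCH1 is the receptor that restrains the pathway until a Hedgehog ligand binds, GAS1 a coreceptor, and GLI2 the main activating transcription factor. GLI2 was at 3.0, 7.11, 6.47 and 6.61 CPM with IL1β, against 10.2, 16.8, 18.0 and 19.6 CPM untreated, with IL1β replicate 5 far below the other IL1β libraries. PTCH1 was at 3.19, 4.57, 5.15 and 6.48 CPM with IL1β and 10.6, 10.7, 14.9 and 12.6 CPM untreated, and GAS1, a low gene, averaged 1.17 ± 0.185 CPM and 2.72 ± 1.01 CPM. BBS4 of the listed cilium genes was also among the 281.

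Of 22 listed Hedgehog and cilium genes tested outside the 281, 0 were lower and 0 higher in edgeR at an adjusted p under 0.05. Only 1 was lower, and 0 higher, at an unadjusted p under 0.05. GLI3, the factor that mostly represses Hedgehog targets, was at 17.9 CPM with IL1β and 15.7 CPM untreated (log2 fold change 0.33, standard error 0.31, edgeR adjusted p = 0.773). GLI1, itself a target of the pathway, was at 4.42 CPM with IL1β and 4.40 CPM untreated (log2 fold change 0.16, standard error 0.39, edgeR adjusted p = 0.941), and SMO, the signal transducer under PTCH1, had an adjusted p of 0.901.

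TGF-β and BMP signaling held 6 genes: SMAD9, VASN, ID2, CCN2, ZFYVE9 and TGFBR2. SMAD9, which carries or dampens BMP signals, was at 1.28, 1.75, 3.02 and 1.62 CPM with IL1β and 4.13, 7.27, 10.3 and 4.21 CPM untreated. ID2, a target of BMP signals that blocks bHLH factors, was at 6.70, 8.77, 5.29 and 7.38 CPM with IL1β, against 10.7, 23.2, 20.2 and 18.4 CPM untreated. CCN2, a matricellular protein induced by TGF-β and YAP, was at 26.3, 43.2, 20 and 34.1 CPM with IL1β and 53.8, 63.0, 56.5 and 126 CPM untreated. SMAD9 and ID2 met the rule in both other settings, as did CCN2.

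Untreated replicate 4, whose CCN2 level was the highest by far, was also the library with 166 CPM of fibroblast and pericyte markers. The log2 ratio of CCN2 was -1.28 with all libraries and -0.90 without untreated replicate 4. Whether fibroblasts or pericytes were present in that A498 library, and whether they bear on CCN2, was not tested. In bulk RNA, fewer cells of a type and less RNA per cell cannot be told apart. TGFBR2, the type II receptor of TGF-β, sat at the edge of the rule, with 45.5, 74.5, 84.9 and 76.1 CPM with IL1β and 99.2, 119, 138 and 113 CPM untreated, and its ratio was 0.663 under TMM. VASN, a TGF-β-binding membrane protein, averaged 13.3 ± 3.39 CPM with IL1β and 35.0 ± 18.9 CPM untreated, and ZFYVE9, which anchors SMAD proteins at endosomes, 11.3 ± 1.34 CPM and 19.1 ± 3.78 CPM.

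Of 37 listed TGF-β and BMP genes outside the 281, 0 were lower and 0 higher in edgeR at an adjusted p under 0.05. Without adjustment, 3 were lower and 2 higher at p under 0.05. SMAD6, an inhibitor of BMP signals, was at 1.53, 8.69, 9.25 and 6.22 CPM with IL1β and at 5.76, 18.4, 25.8 and 18.7 CPM untreated (log2 fold change -1.27, standard error 0.53, edgeR adjusted p = 0.426). Replicates 5 and 1 were far below the rest of their groups, and untreated replicate 1 lay below IL1β replicates 6, 7 and 8. SMAD1, a close relative of SMAD9, was at 28.6 CPM with IL1β and 24.6 CPM untreated (log2 fold change 0.37, standard error 0.20, edgeR adjusted p = 0.572), and ID1 and ID3 had adjusted p-values of 0.850 and 0.849.

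WNT signaling held 5 genes. The receptor FZD4 was at 2.23, 2.25, 1.42 and 1.49 CPM with IL1β and 7.31, 3.30, 5.56 and 3.12 CPM untreated. FZD2, another WNT receptor, averaged 15.8 ± 3.67 CPM with IL1β and 31.5 ± 14.6 CPM untreated. FZD2 lost the separation of its groups under TMM. DACT3 and DIXDC1, which act on Dishevelled, and PYGO1, a β-catenin cofactor, had ratios of 0.503, 0.525 and 0.582. Of 39 other listed WNT genes tested, 0 were lower and 0 higher in edgeR at an adjusted p under 0.05. At an unadjusted p under 0.05, 1 was lower and 2 were higher. FZD1, FZD6 and FZD7 were among the 39, with edgeR adjusted p-values of 0.777, 0.879 and 0.693.

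Notch signaling held MFNG, a glycosyltransferase that modifies Notch receptors, and HES1, a repressor that Notch activates. MFNG was at 4.08, 2.0, 0.944 and 1.36 CPM with IL1β and 6.31, 5.29, 4.48 and 5.15 CPM untreated, and HES1 at 11.9, 7.86, 10.1 and 6.86 CPM with IL1β and 14.4, 19, 21.2 and 13.3 CPM untreated. In both, IL1β replicate 5 was the highest IL1β library, the reverse of most of the 281, and neither kept its groups apart under TMM. Of 20 other listed Notch genes tested, 0 were lower and 0 higher in edgeR at an adjusted p under 0.05. Before adjustment, 1 was lower and 3 were higher at p under 0.05.

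**Figure D4:**
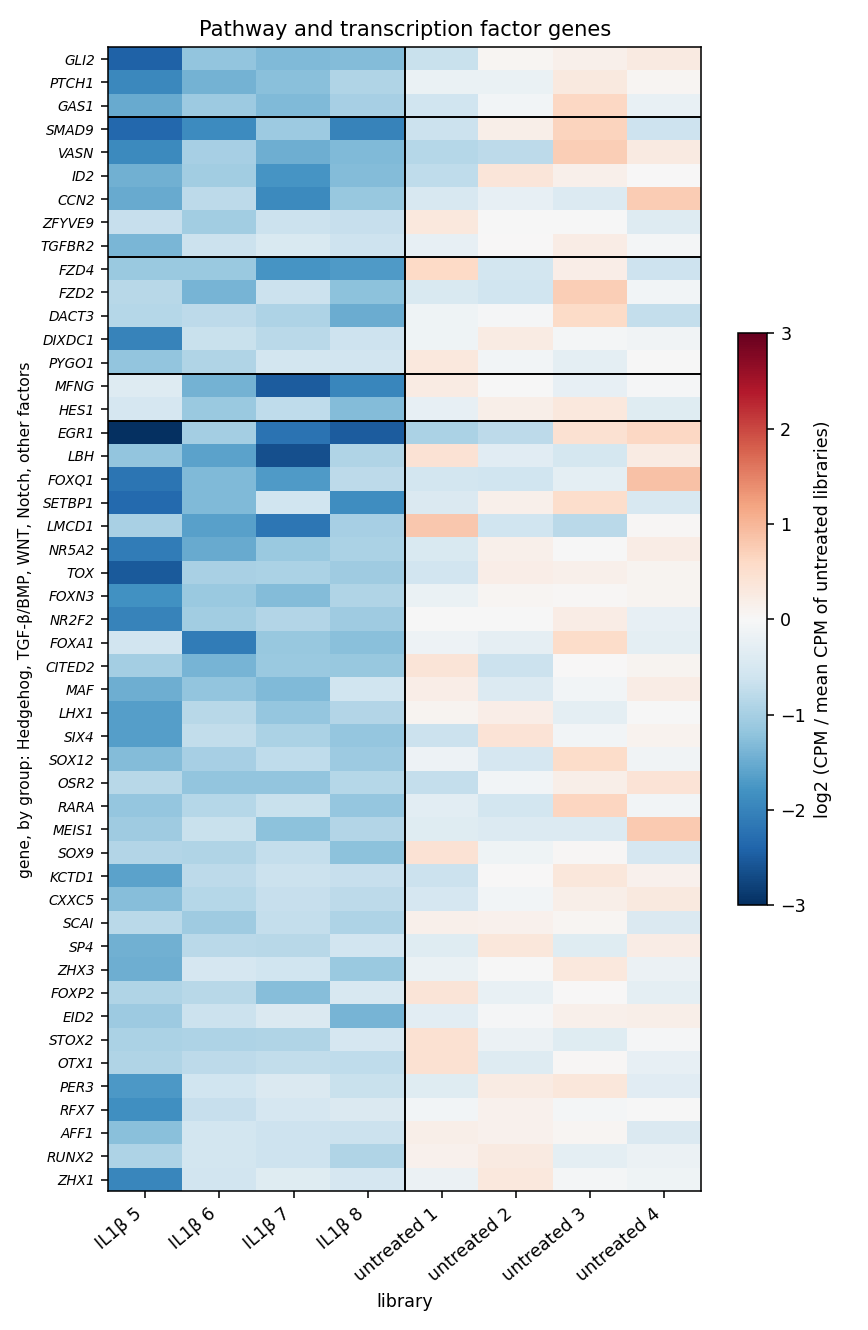
Log2 of CPM over the mean CPM of untreated libraries, capped at -3 and 3, for the 3 Hedgehog, 6 TGF-β and BMP, 5 WNT and 2 Notch genes and 33 other transcription factors and cofactors, with IL1β libraries left of untreated ones. Rows are ordered by ratio within a group, blue is below the untreated mean, and IL1β replicate 5 is the darkest column for many but not for MFNG, HES1 or FOXA1.

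The 33 other transcription factors and cofactors had ratios of 0.243 to 0.60. Among forkhead genes, which control epithelial and metabolic programs, FOXN3 was at 5.29, 8.61, 7.55 and 9.91 CPM with IL1β and 16.2, 19.4, 18.9 and 19.5 CPM untreated, with a narrow untreated range. FOXQ1 was at 1.21, 2.20, 1.70 and 3.24 CPM with IL1β and 3.76, 3.66, 4.52 and 10.2 CPM untreated, so that untreated replicate 4 alone lay well above the rest, and its log2 ratio was -1.41 with it and -0.93 without it. FOXA1, a pioneer factor of epithelia, averaged 1.10 ± 0.441 CPM with IL1β and 2.47 ± 0.766 CPM untreated and was not separated under TMM. Of 21 other forkhead genes tested 0 were lower and 0 higher in edgeR at an adjusted p under 0.05. The unadjusted p was under 0.05 for 1 lower and 2 higher genes.

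Nuclear receptors were represented by NR5A2, NR2F2 and RARA. NR2F2, a regulator of mesenchymal and venous identity, was at 24.2, 46.8, 52.7 and 46.1 CPM with IL1β and 96.6, 96.3, 113 and 81.9 CPM untreated, and the rule was met under TMM as well. RARA, a receptor of retinoic acid, averaged 20.6 ± 3.45 CPM with IL1β and 39.9 ± 15.8 CPM untreated and overlapped under TMM. NR2F1, the closest relative of NR2F2, was at 3.63, 11.3, 11.1 and 9.33 CPM with IL1β and 10.4, 26.4, 36.2 and 22.7 CPM untreated (log2 fold change -1.28, standard error 0.40, edgeR adjusted p = 0.241). Its groups overlapped because untreated replicate 1 lay below IL1β replicates 6 and 7. None of the 33 nuclear receptors tested outside the 281 passed in edgeR, with 2 lower and 3 higher at an unadjusted p under 0.05.

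Homeobox and SOX genes of kidney and epithelial development were also present. LHX1, a factor of the nephric duct and a renal marker here, was at 9.69, 17.2, 13.7 and 16.6 CPM with IL1β and 32.0, 34.8, 24.7 and 30.0 CPM untreated. PAX8, another kidney lineage factor and not among the 281, was higher with IL1β, at 450.1, 354, 360.0 and 422 CPM, against 137, 147, 115 and 230.0 CPM untreated (log2 fold change 1.5, standard error 0.24, edgeR adjusted p = 0.0239, and 0.00935 to 0.107 with any 1 library left out, not passing without replicate 1, 2, 3, 6, 7 or 8). LHX1 and PAX8 thus stood on opposite sides of their untreated ranges in the same libraries.

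SIX4, a homeobox factor, was at 2.23, 4.20, 3.63 and 3.11 CPM with IL1β and 4.50, 9.31, 6.60 and 7.54 CPM untreated. SOX9, a factor of kidney development and repair, averaged 27.2 ± 3.90 CPM with IL1β and 51.4 ± 13.7 CPM untreated, and SOX12 15.3 ± 2.35 CPM and 31.0 ± 10.3 CPM. MEIS1 was at 7.80 CPM in untreated replicate 4 and at 3.39 to 3.51 CPM in the other untreated libraries, and its log2 ratio was -0.94 with that library and -0.54 without it. RUNX2, an osteoblast factor, averaged 22.0 ± 2.96 CPM with IL1β and 36.6 ± 6.67 CPM untreated and did not meet the rule under TMM. SP4, of the SP family, and the clock gene PER3 had ratios of 0.545 and 0.582 and did not meet it under TMM either. CITED2, which restrains hypoxia-inducible factor, averaged 29.9 ± 3.16 CPM with IL1β and 66.9 ± 18.3 CPM untreated.

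Corepressors and their partners gave tested changes outside the 281. RUNX1T1, a repressor that bridges DNA-bound factors to histone deacetylases and was too low for the rule, fell to 0.128, 0.333, 0.425 and 0.130 CPM with IL1β, against 1.62, 1.32, 1.63 and 1.77 CPM untreated (log2 fold change -2.43, standard error 0.44, edgeR adjusted p = 0.0370, and 0.0554 to 0.130 with any 1 library left out). TLE3, a corepressor of WNT and Notch target genes, rose to 93.3, 140.5, 142 and 127 CPM with IL1β, against 51.6, 43.3, 51.1 and 52.5 CPM untreated (log2 fold change 1.49, standard error 0.17, edgeR adjusted p = 0.00566, and 0.00155 to 0.0377 with any 1 library left out). RCOR3 of the same list, a member of the CoREST complexes, was among the 281, at 13.6 ± 2.05 CPM with IL1β and 24.5 ± 1.16 CPM untreated.

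Chromatin regulators numbered 14, with ratios of 0.432 to 0.599. Of 51 histone demethylases and methyltransferases that reached 2 CPM untreated, 2 were among them (3.92%). JADE1, a subunit of histone acetyltransferase complexes that is known to be stabilized by VHL, was at 13.0, 32.6, 36.6 and 41.7 CPM with IL1β and 50.7, 85.3, 77.0 and 73.3 CPM untreated. KAT6B is a histone acetyltransferase (10.4 ± 1.56 CPM with IL1β and 21.8 ± 6.15 CPM untreated), and SMARCA2 an ATPase of SWI/SNF complexes (61.4 ± 15.3 CPM and 112 ± 21.6 CPM). The histone demethylase KDM4D and the methyltransferase NSD1, with ratios of 0.529 and 0.588, had ratios of 0.681 and 0.643, above the limit, without untreated replicate 1 and IL1β replicate 5. Of the 14 genes 4 met the rule under TMM and 7 without those libraries.

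DNA repair and damage response held 12 genes. PMS2, of mismatch repair, was at 10.0, 10.0, 13.1 and 12.6 CPM with IL1β and 29.6, 26.8, 28.7 and 17.3 CPM untreated. Its pseudogene PMS2P3 was also among the 281 (ratio 0.575), and because the sequences are nearly identical, reads of one may have been counted for the other. PMS1, which also acts in mismatch repair, averaged 15.4 ± 1.80 CPM with IL1β and 27.7 ± 6.38 CPM untreated. REV3L, the catalytic subunit of a translesion polymerase, and ATM, the kinase of double-strand breaks, had ratios of 0.529 and 0.593, and without replicates 1 and 5 their ratios of 0.607 and 0.693 lay above the limit.

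Of 47 other listed repair genes tested, 0 were lower and 0 higher in edgeR at an adjusted p under 0.05. Unadjusted p-values under 0.05 were found for 1 lower and 0 higher genes.

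The cytoskeleton and its regulators were represented by 19 genes, among them PRAG1, KANK1 and ARHGAP35. ARHGAP35 was at 39.0, 71.8, 72.9 and 77.5 CPM with IL1β and 90.6, 116, 169 and 121 CPM untreated, with IL1β replicate 5 far below the others, and its log2 ratio was -0.75 without that library. ARHGAP27, outside the 281, rose to 34.0 CPM with IL1β, against 20.4 CPM untreated (log2 fold change 0.89, standard error 0.16, edgeR adjusted p = 0.0355, and 0.0341 to 0.130 with any 1 library left out, passing only without IL1β replicate 5). TNS1, a tensin of focal adhesions outside the 281, rose to 89.8 CPM with IL1β, against 51.6 CPM untreated (log2 fold change 0.94, standard error 0.17, edgeR adjusted p = 0.0409, and 0.0126 to 0.160 with any 1 library left out, passing only without IL1β replicate 5).

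Receptors, kinases and signaling adaptors numbered 21. F2R, the thrombin receptor, was at 14.9, 24.5, 24.6 and 17.5 CPM with IL1β and 32.1, 38.1, 49.9 and 57.6 CPM untreated. IGF1R, the receptor of insulin-like growth factors, was at 6.63, 20.6, 16.2 and 23.2 CPM with IL1β and 23.5, 32.6, 30.8 and 30.6 CPM untreated, a gap of almost nothing between IL1β replicate 8 and untreated replicate 1. SESN1, a stress-induced inhibitor of mTORC1, averaged 9.16 ± 1.24 CPM with IL1β and 20.2 ± 5.09 CPM untreated, while SESN2 and SESN3 did not pass (edgeR adjusted p = 0.997 and 0.606).

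GPR39, a receptor that senses zinc, averaged 13.2 ± 1.54 CPM with IL1β and 22.1 ± 2.34 CPM untreated, and DUSP4, a phosphatase of MAP kinases, 6.28 ± 1.06 CPM and 10.7 ± 3.03 CPM. Channels and scramblases held KCNH1, XKR9, CLCN5 and LRRC8E. KCNH1, a voltage-gated potassium channel, was at 4.15, 8.11, 6.94 and 6.99 CPM with IL1β and 15.5, 21.0, 15.6 and 14.9 CPM untreated, with untreated replicate 2 apart above the rest. All 4 but LRRC8E met the rule under TMM.

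Lipid and intermediary metabolism held 18 genes, of which 8 met the rule under TMM. GPAM and GPAT3, which acylate glycerol phosphate, averaged 9.12 ± 1.39 CPM and 36.1 ± 16.7 CPM with IL1β, against 18.1 ± 4.78 CPM and 73.0 ± 24.0 CPM untreated. GPAT3 was barely separated, with IL1β replicate 6 at 54.7 CPM and untreated replicate 1 at 54.9 CPM. Its groups overlapped under TMM, where GPAM met the rule. GPAT4, of the same function, had an edgeR adjusted p of 0.659.

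PNPLA3, a lipase of lipid droplets, had a ratio of 0.378, CHKA, a choline kinase, of 0.475, and ACACB, an acetyl-CoA carboxylase, of 0.581. Cilium and centrosome genes numbered 12, with ratios of 0.479 to 0.592, among them BBS4 and BBS10 of the BBSome and its chaperones. TTC30A and TTC30B, both transport proteins of the cilium, are near copies 60203 bases apart on chromosome 2, so that reads may have been exchanged between them.

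Adhesion and polarity held 6 genes. FAT4, a giant cadherin of planar polarity, was at 3.25, 8.11, 7.55 and 5.50 CPM with IL1β and 13.8, 24.6, 22.0 and 10.4 CPM untreated. It was joined by PCDH9, PARD6B, LRFN1, MAGI2 and PPFIA4, and 4 of the 6 met the rule under TMM. Of 39 other cadherin and protocadherin genes tested, 0 were lower and 0 higher in edgeR at an adjusted or an unadjusted p under 0.05.

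BTB, kelch and ubiquitin ligase adaptors held 9 genes, with TRIM45 (3.11 ± 0.666 CPM with IL1β and 7.93 ± 2.95 CPM untreated), KLHL24 (3.12 ± 0.270 CPM and 7.38 ± 1.88 CPM), KBTBD11, KBTBD7 and FBXL20. TRIM21, an antibody receptor of the same TRIM family outside the 281, rose to 67.0 CPM with IL1β, against 27.6 CPM untreated (log2 fold change 1.43, standard error 0.21, edgeR adjusted p = 0.0168, and 0.0184 to 0.0646 with any 1 library left out, not passing without replicate 2, 6, 7 or 8). The share of members was 3 of 28 (10.7%) in KLHL and KBTBD adaptors, 1 of 40 (2.5%) in TRIM genes, 1 of 49 (2.04%) in F-box genes and 0 of 60 in RNF ligases, so that of the last 3 families was near or below the share over all genes. Membrane traffic held 7 genes, among them SH3BP4, the sorting receptor SORL1 (3.83 ± 0.457 CPM with IL1β and 6.59 ± 0.378 CPM untreated) and the early endosome tether EEA1, whose IL1β replicate 5 lay at 5.42 CPM against 26.0 to 32.7 CPM in the other IL1β libraries.

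The remaining 7 genes were pseudogenes or noncoding (MRPL45P2, MIR503HG, FAM86C2P, MIR1915HG, SUZ12P1, PMS2P3 and EEF1A1P9), and their reads may be shared with parent or host genes. FSBP, given no group, overlaps RAD54B on the same strand. On the annotation, 92 of the 281 genes overlap a gene on the same strand and 172 a gene on the other strand, and the strand setting of the counting is not given in the sources used here.

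In the other lists the share of members among genes that reached 2 CPM untreated was 4 of 25 (16.0%) for Hedgehog signaling and the cilium, 3 of 36 (8.33%) for TGF-β and BMP signaling, 2 of 37 (5.41%) for WNT signaling and 2 of 19 (10.5%) for Notch signaling. It was 4 of 24 (16.7%) for forkhead genes, 3 of 30 (10.0%) for nuclear receptors, 3 of 49 (6.12%) for DNA repair and 2 of 26 (7.69%) for cadherins and protocadherins. The lists are small and were chosen with earlier results known, and no test was made of these shares. They also do not match the role groups of like name. Those for TGF-β and BMP, WNT and DNA repair hold 3, 2 and 3 of the 6, 5 and 12 genes grouped above.

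Across all lists and families of related genes, 1507 genes outside the 281 were tested. In edgeR 1 was lower (RUNX1T1, 0.0664%) and 8 were higher (0.531%) at an adjusted p under 0.05. Over all 15062 genes tested these shares were 0.0598% and 0.929%. At an unadjusted p under 0.05, 64 of the 1507 were lower and 89 higher, against 685 and 938 of the 15062. Among the 1507, DESeq2 called 1 lower and 34 higher and limma-voom 1 lower and 11 higher. Without untreated replicate 1 and IL1β replicate 5, edgeR called 4 lower and 35 higher.

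The rule fixes the order between groups but not within a group. IL1β replicate 5 was the lowest IL1β library in 165 of the 281 genes (58.7%), against 50.6% of the 12392, and the highest in 36 (12.8%), against 31.8%. Untreated replicate 4 was the lowest untreated library in 97 of the 281 (34.5%), against 18.1%. Untreated replicate 1 was the lowest in 85 (30.2%), against 37.2%. The requirement that groups stay apart bears on which library can be lowest, so these shares are descriptions.

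The genes also differed in build from the background. All 281 matched GENCODE 44, 6 of them under a newer symbol, and 274 are protein coding. The median gene spanned 50678 bases, against 35657 in 11287 coding genes of the background, with 7 against 9 exons in the Ensembl canonical transcript. That transcript had a median length of 4864 against 3489 bases and a GC content of 45.2% against 47.7%. The 3′ untranslated region was longer, 2325 against 1409 bases in the median, and held 5 against 2 ATTTA motifs, the core of AU-rich elements, with a density of 2.31 against 1.8 per kilobase. Genes of a single exon made up 5.11% of the coding genes among the 281, against 1.82%. No test was made of these medians, and the 281 genes are also less abundant than the background, as given above.

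The 281 genes lie on 23 chromosomes. Among them 9 pairs lie within 100000 bases of each other, and none of the pairs overlap. They include FOXA1 and MIPOL1, MFNG and CARD10 on chromosome 22, 3969 bases apart, FZD4 and TMEM135, ABRAXAS1 and GPAT3, and the zinc finger pairs ZNF225 with ZNF234 and ZNF527 with ZNF569 on chromosome 19.

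**Figure D5:**
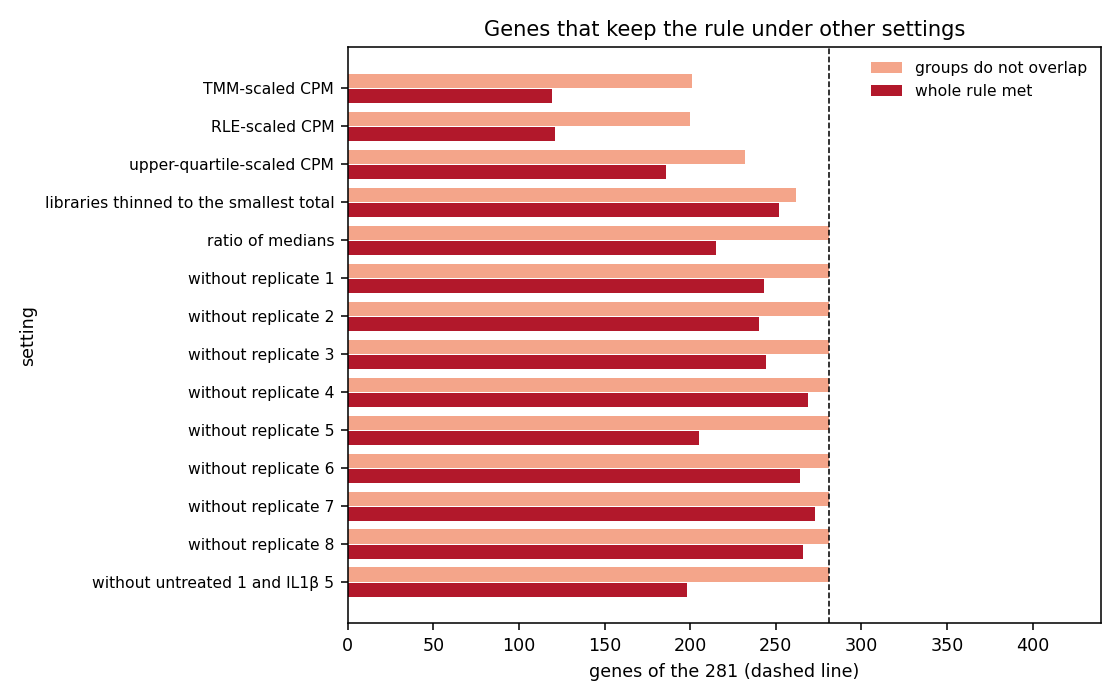
Number of the 281 genes whose groups did not overlap (light bars) and that met the whole rule (red bars) under other scalings and with libraries left out, the dashed line marking 281. TMM and RLE scaling leave 119 and 121 genes, thinning leaves 252, and leaving out a single library leaves 205 to 273.

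Without untreated replicate 1 and IL1β replicate 5, further named genes had ratios above 0.6. Among regulators these were ZNF281 (0.621), SMARCA2 (0.621), RCOR3 (0.602), PER3 (0.628), PYGO1 (0.686), RUNX2 (0.642), ZHX1 (0.687) and the zinc finger genes ZNF234 (0.632), ZNF225 (0.695), ZNF569 (0.667) and ZNF527 (0.654). Among signaling, traffic and metabolic genes they were TGFBR2 (0.636), ZFYVE9 (0.634), IGF1R (0.639), SASH1 (0.639), EEA1 (0.632), ACACB (0.603) and PPFIA4 (0.601), with DIXDC1 and SORL1 just above the limit. The others were BBS4 (0.601), BBS10 (0.718), TTC30B (0.653), MIPOL1 (0.644), TMEM135 (0.762) and ABRAXAS1 (0.638).

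The rule was also applied to all genes under other settings. With the same symbols set aside, it found 119 genes with CPM scaled by TMM, 121 with RLE factors and 197 with upper-quartile factors, of which 186 are among the 281. At a limit of 0.5 for the ratio it found 96 genes and at 0.7 it found 564. Without untreated replicate 1 it found 521 genes, and 243 of the 281 were among them, the widest change from a single library.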

How the data were processed

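RNA-seq counts per gene were deposited by the authors as 1 table of 59050 rows for 8 A498 libraries. Per the labels and the study's methods, reads of a TruSeq stranded library were aligned with STAR 2.5.3a to hg38 and counted with featureCounts. Which annotation and which strand option were used is not stated in those sources, so overlapping and antisense genes are uncertain. A further 27 rows had symbols turned into dates by a spreadsheet. They held 0.197% to 0.236% of the counts and were left out of gene tests.

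CPM used the total of each column, and no pseudocount entered the ratios, and principal components used log2(CPM + 1). Members, lists and role groups were chosen with earlier results of these data known. Tests used edgeR 4.0.16 (quasi-likelihood, TMM, filterByExpr, 15062 genes, Benjamini-Hochberg) in R 4.3.3 and were tested on simulated data. Alternatives were DESeq2 1.42.0, limma-voom (limma 3.58.1), other factors and filters, counts thinned to 15441704 per library (seed 1), other limits of the rule, and libraries left out. The alternatives for single genes outside the 281 were added after seeing the data. Genes named were the 15 with the lowest ratio, the 8 with the highest untreated level, the 3 genes next to the ratio limit on either side, up to 3 members of each list by lowest ratio, up to 2 genes outside the 281 per list and direction that passed in edgeR, and the treatment check. Others were picked after their values were seen. Gene models were GENCODE 44, and promoters were RefSeq on GRCh38.p14. Results for some genes are not reported here.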

Additional observations from a re-analysis of the deposited data

Results flagged for a closer look

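With 4 libraries per group, a library is singled out when its gap to the nearest other library takes more of its group's range than Dixon's limit allows. Chance does this in about 1 in 20 groups, and here it was so in 8 of 136 groups of the named genes and in 19 IL1β and 19 untreated groups of the 281 genes (6.76%). IL1β replicate 5 was the low library in 3 genes: GLI2 at 3.0 CPM (6.47 to 7.11 CPM in the other IL1β libraries), PCDH9 at 1.02 CPM (1.41 to 1.49 CPM) and ARHGAP35 at 39.0 CPM (71.8 to 77.5 CPM). Untreated replicate 4 was the high library in CCN2 at 126 CPM (53.8 to 63.0 CPM in the other untreated libraries), FOXQ1 at 10.2 CPM (3.66 to 4.52 CPM) and MEIS1 at 7.80 CPM (3.39 to 3.51 CPM). KCNH1 stood at 21.0 CPM in untreated replicate 2 (14.9 to 15.6 CPM) and FOXA1 at 3.62 CPM in untreated replicate 3 (2.03 to 2.21 CPM).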

How the results depend on the processing

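No paired analysis was possible because the groups share no replicate numbers and the labels do not say which libraries form the 4 pairs that the methods mention, so counts of calls may differ from those of a paired fit. The rule was met by 119 genes under TMM and 121 under RLE, all among the 281, by 96 at a ratio of at most 0.5 and by 564 at 0.7; upper-quartile factors left 186 of the 281. Leaving out 1 library gave 292 to 521 genes, and 205 to 273 of the 281. In edgeR, 9 genes were lower and 140 higher. Lower genes numbered 15 with upper-quartile factors, 109 with DESeq2, 54 without untreated replicate 1 and IL1β replicate 5, and 0 to 12 with 1 library left out. They were 0 without IL1β replicate 6, 7 or 8, where 406, 529 and 582 were lower at an unadjusted p under 0.05, against 685 with all libraries. Higher genes numbered 423 with DESeq2, 230 without a filter, 378 without those 2 libraries, and 38 to 218 with 1 library left out. Of the listed genes outside the 281, 1 was lower and 8 were higher. Lower ones numbered 0 without a filter, 4 without those 2 libraries and 0 with any 1 library left out. Higher ones numbered 5 with library size only, 34 with DESeq2, 14 without a filter, 35 without those 2 libraries, and 1 to 16 with 1 library left out. The cause of these differences was not tested. For 68 named genes of the 281, 951 of 952 log2 ratios under the alternatives moved by less than the replicate spread, and 0 reversed. The exception was GPR39 under RLE scaling (-0.58). The rule sets the groups apart, so no ratio could reverse with libraries left out or with medians. These counts are therefore a description and say little about stability.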
